A study of Arabidopsis thaliana with 14 samples.

Results

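Heat shock proteins are molecular chaperones. In plants, heat and other conditions that unfold proteins activate heat shock factors, which bind the promoters of chaperone genes and switch them on. HSP101 pulls proteins back out of aggregates, HSP90 and HSP70 fold and hold client proteins with the use of ATP, and the small heat shock proteins bind unfolding proteins without ATP and keep them soluble. In unstressed vegetative tissue most small heat shock protein genes are known to be nearly silent, while some are also switched on during seed maturation and pollen development.

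The 10 genes described here were chosen by name, through the probes that the array assigns to their loci: HSP101 (AT1G74310), the cytosolic disaggregase; HSP90.1 (AT5G52640), the heat-inducible cytosolic HSP90; HSP70 (AT3G12580), a heat-inducible cytosolic HSP70; and 7 small heat shock proteins. Of these, HSP17.4 (AT3G46230), HSP17.6C (AT1G53540) and HSP18.2 (AT5G59720) belong to class I of the cytosol, HSP17.6A (AT5G12030) and HSP17.6II (AT5G12020) to class II of the cytosol, HSP21 (AT4G27670) to the chloroplast and HSP22 (AT4G10250) to the endomembrane system. The class II pair are direct neighbours on chromosome 5. They are 10 of 28327 loci on the array, and each had 1 probe.

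RNA of Arabidopsis quad mutants and Col-0 WT, both taken as mature whole plants of 28 days by the labels, was hybridised together on 14 Agilent 2-colour arrays. Quad carries bri1-301, brl1-1, brl3-1 and bak1-3, mutations in 3 brassinosteroid receptor genes (BRI1, BRL1, BRL3) and in that of their co-receptor (BAK1), in all its tissues. A biological replicate was a pool of several rosettes, according to the methods. Plants were collected at day 0, before water was withheld, and at days 2, 4 and 6 either without water (drought) or with normal watering (water), which gave 7 conditions of 2 arrays each. Quad RNA carried Cy5 in replicate 1 and Cy3 in replicate 2, with WT in the other dye. The small number of arrays limits the precision of every value, and in whole plants fewer cells of a type and less RNA per cell cannot be told apart.

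Levels are normalised log2 intensities of a channel, and ratios are log2 quad/WT within an array. A level of 1 probe cannot be set against that of another. Intensities carry an added offset of 50, which draws the ratios of dim probes towards 0. A gene was called when its adjusted p in limma was under 0.05 over all genes and its log2 change exceeded 1.5 in size, the limits of the study's methods. Genes past the adjusted p alone are given as a second count, beside the share of all measured genes that passed in the same direction.

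The libraries were checked against their labels through the mutated genes. Over the 7 conditions BAK1 was lower in quad at -2.04 ± 0.04, BRL1 at -1.66 ± 0.08 and BRL3 at -1.18 ± 0.05, while BRI1, whose bri1-301 allele still makes a transcript, was at 0.38 ± 0.05. The 2 arrays of a condition correlated across genes, which are not independent replicates, with r between 0.52 and 0.89. The lowest values were those of day 6 drought (0.52), day 6 water (0.63) and day 4 drought (0.63). Day 4 drought replicate 1 stood apart from the other 13 arrays. Its BRL1 ratio was -0.45 and its BRL3 ratio -0.64, against -1.75 and -1.46 on replicate 2 of that condition, while BAK1 was at -2.01 and -1.88. Its deposited ratios had an r of 0.67 with the scanner's log10 ratios, beside 0.92 to 0.97 on the other arrays. Results that rest on it and passed the adjusted p are given without it where they moved. Results that did not pass were not followed without it.

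Of the 10 heat shock protein genes, 8 were measured, meaning that in some genotype and condition the scanner software marked the probe as well above background in both replicates. The other two were HSP70 (AT3G12580), which was not well above background in any of the 28 channels, and HSP21 (AT4G27670), which reached it in 1 WT channel, that of day 6 water replicate 2. HSP22 (AT4G10250) was measured only because of WT at day 6 water. It was well above background in 4 of 28 channels, both of WT at day 6 water and the quad and WT channels of day 2 water replicate 2, and no comparison of it passed the adjusted p. HSP101, HSP90.1 and HSP18.2 were well above background in all 28 channels, HSP17.4 in 27, HSP17.6A in 23, HSP17.6C in 22 and HSP17.6II in 21.

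**Figure D1:**
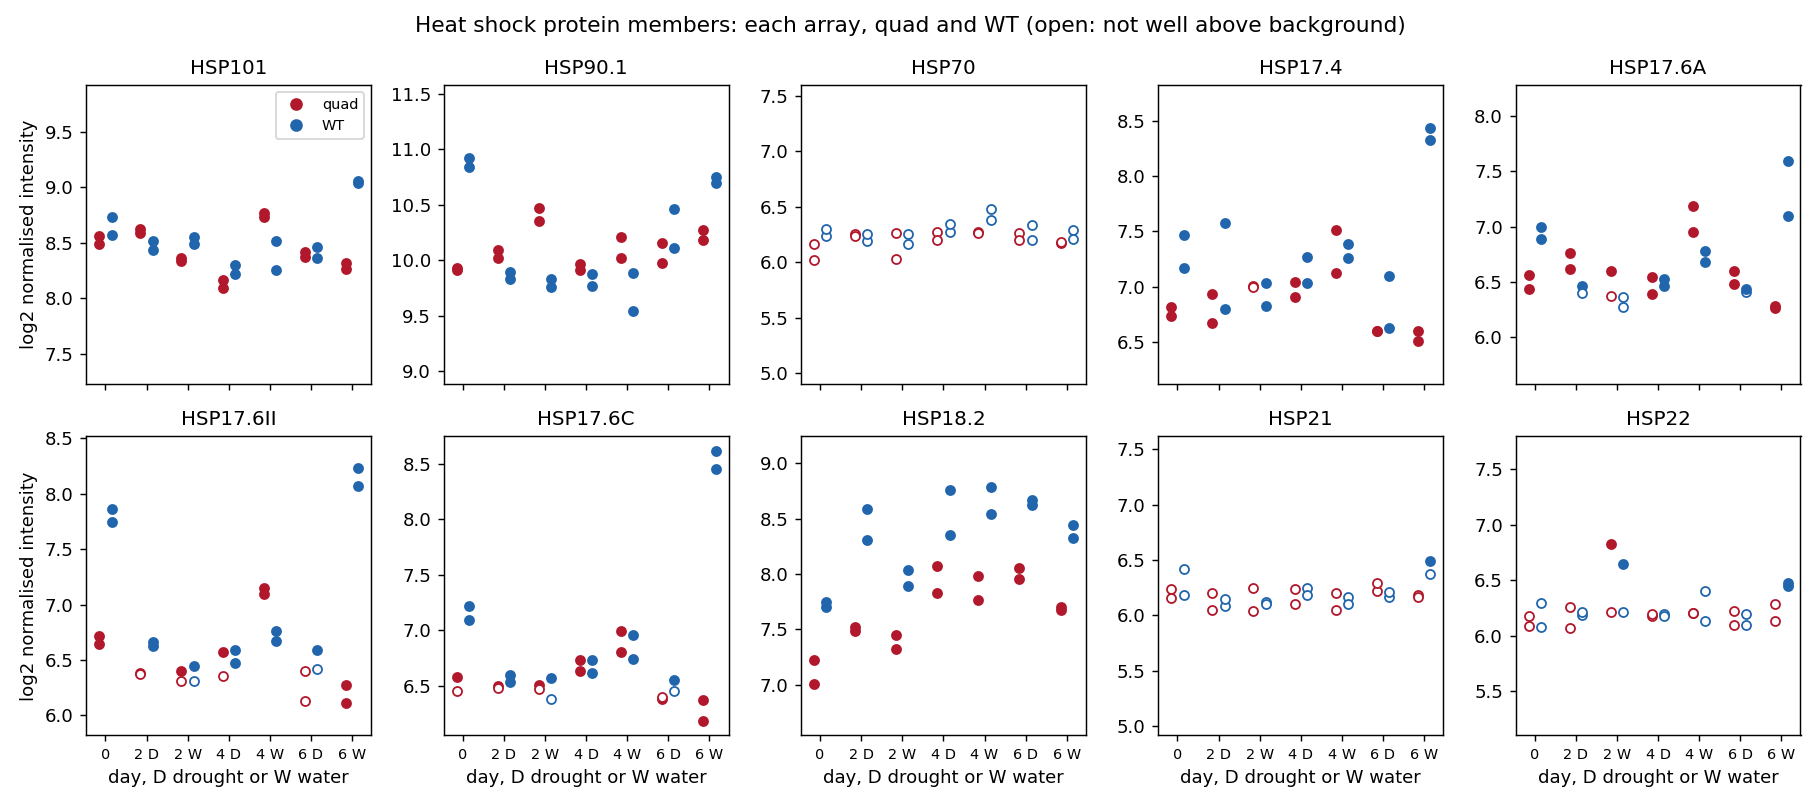
Normalised log2 intensity of the 10 heat shock protein genes (y axis, whose range differs between panels) in each condition (x axis: day, with D for drought and W for water). Each point is 1 channel of 1 array, quad in red left of WT in blue, with 2 replicates per condition, and open points are channels not well above background. The WT points of day 6 water stand highest in HSP101, HSP17.4, HSP17.6II and HSP17.6C, and the quad points of HSP18.2 lie below the WT points of the same condition throughout.

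Over the 8 genes measured the median difference between quad and WT was furthest from 0 in watered plants at day 6, although HSP90.1 differed more at day 0 and HSP18.2 at day 2 drought. HSP17.6C, HSP17.6II and HSP17.4 were lower in quad and passed both limits, by 4.79-fold, 3.88-fold and 3.53-fold. HSP17.6A, HSP101, HSP18.2 and HSP90.1 were lower by 2.09-fold, 1.69-fold, 1.62-fold and 1.41-fold and passed the adjusted p only. Thus 7 of the 8 genes measured passed the adjusted p downwards, against 6.78% of all genes, and 3 were called lower, against 0.153%. HSP22, at -0.25 ± 0.10 (SE), did not pass. The median over the 8 genes was -0.91, beside 0.01 over all genes tested.

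HSP17.6C (AT1G53540), a class I small heat shock protein, had log2 levels of 6.18 and 6.37 in quad, against 8.46 and 8.62 in WT. Its ratio was -2.27 on one array and -2.25 on the other, giving -2.26 ± 0.08 (SE, n = 2, limma adjusted p = 4.87e-08). The WT levels were the highest of this gene in the series, since its other WT channels lay between 6.38 and 7.21. The quad levels were at the low end of the quad range, which ran from 6.18 to 6.99 over the 14 arrays.

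HSP17.6II (AT5G12020), of class II, had log2 levels of 6.11 and 6.28 in quad, against 8.23 and 8.07 in WT. Its ratio was -1.96 ± 0.11 (SE, n = 2, limma adjusted p = 8.14e-07), from -2.12 and -1.79 on the 2 arrays. HSP17.4 (AT3G46230), of class I, had 6.60 and 6.51 in quad, against 8.43 and 8.32 in WT, a ratio of -1.82 ± 0.16 (limma adjusted p = 2.35e-05). For all 3 called genes the quad and WT levels at day 6 water lay apart by far more than the spread between replicates.

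HSP17.6A (AT5G12030), the neighbour of HSP17.6II, had 6.29 and 6.27 in quad, against 7.59 and 7.09 in WT. The ratio was -1.06 ± 0.10 (limma adjusted p = 4.59e-05), with the replicates at -1.30 and -0.82. HSP101 (AT1G74310) had 8.26 and 8.32 in quad, against 9.04 and 9.06 in WT, a ratio of -0.76 ± 0.09 (limma adjusted p = 0.000236). These WT levels were also the highest of HSP101 in any channel. HSP90.1 (AT5G52640) had 10.27 and 10.18 in quad, against 10.70 and 10.75 in WT, a ratio of -0.50 ± 0.08 (limma adjusted p = 0.00207). HSP90.1 did not pass without replicate 2 (-0.42) or with arrays centred on their median in place of loess (-0.33), and under the second setting HSP101 (-0.58) and HSP18.2 (-0.55) did not pass either.

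Markers of other tissues moved in the same condition. All 8 root markers were higher in quad at day 6 water by the adjusted p, with a median of 1.21, against 7.78% of all genes that passed upwards, and their mean log2 level was 8.91 and 8.99 in quad, against 7.78 and 7.79 in WT. The 2 called were TIP2;3, a root aquaporin, and CASP1 (1.73), of the Casparian strip. Of 9 flower markers 2 were higher, of 5 leaf markers 2 were lower, and of the 3 seed markers measured, out of 7 on the list, 0 passed by limma, with 0 at an unadjusted p under 0.05. At day 6 drought 7 of the 8 root markers were also higher in quad by the adjusted p, with a median of 0.75, beside 1126 of 22810 genes that passed upwards. At day 2 drought the root markers went the other way, with 7 of 8 lower in quad by the adjusted p and a median of -1.61. There 5 were called lower, beside 183 of 22810 genes called lower and 2712 that passed downwards. The part of these tissue markers in the heat shock protein results was not tested.

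**Figure D2:**
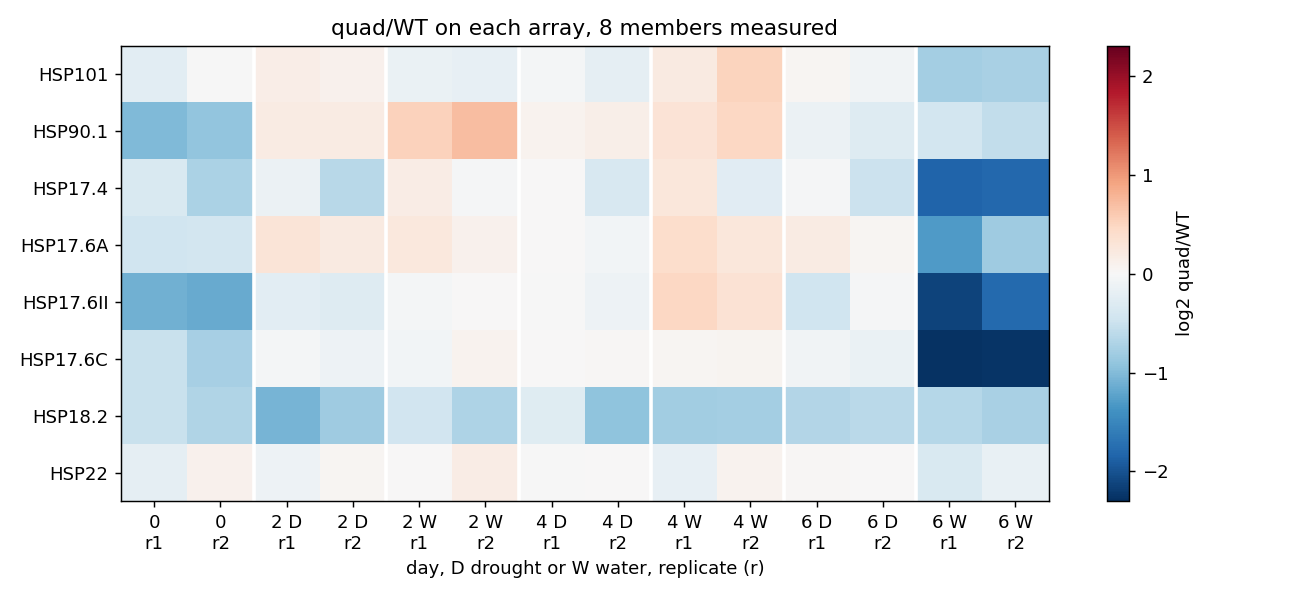
Log2 quad/WT (colour) of the 8 heat shock protein genes measured (rows) on each of the 14 arrays (columns: day, D drought or W water, r replicate). Blue is lower in quad, and the darkest cells are HSP17.6C, HSP17.6II and HSP17.4 on both arrays of day 6 water, while HSP18.2 is blue in all 14 columns.

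Before water was withheld, at day 0, several members were also lower in quad. HSP17.6II, HSP90.1, HSP17.6C, HSP18.2 and HSP17.6A were lower in quad by the adjusted p, between 2.18-fold and 1.36-fold. That is 5 of the 8 genes, against 6.57% of all genes, and none was called, against 0.737% called in either direction. The median over the 8 genes was -0.58, beside 0.00 over all genes.

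HSP17.6II (AT5G12020) had log2 levels of 6.64 and 6.72 in quad at day 0, against 7.74 and 7.87 in WT. Its ratio was -1.12 ± 0.11 (SE, n = 2, limma adjusted p = 2.60e-05). With signals processed by the scanner software, this ratio was -2.53 and passed both limits, and with median centring those of HSP90.1 (-0.86), HSP17.6A (-0.48) and HSP18.2 (-0.58) did not pass the adjusted p. HSP90.1 (AT5G52640) had 9.91 and 9.93 in quad, against 10.93 and 10.84 in WT, a ratio of -0.96 ± 0.08 (limma adjusted p = 1.17e-05). The day 0 WT channels held the 2 highest levels of HSP90.1 in the series, and the second highest pair of HSP17.6II after day 6 water.

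HSP17.6C (AT1G53540) had a ratio of -0.64 ± 0.08 at day 0 (limma adjusted p = 0.000245), from 6.58 and 6.45 in quad, against 7.10 and 7.21 in WT. Its quad level was well above background on 1 of the 2 arrays. HSP17.6A (AT5G12030) was at -0.44 ± 0.10 (limma adjusted p = 0.018) and HSP18.2 (AT5G59720) at -0.61 ± 0.13 (limma adjusted p = 0.0101), and both failed to pass when either day 0 array was left out. HSP17.4 (AT3G46230), at -0.36 and -0.73 on the 2 arrays, did not pass (limma adjusted p = 0.0594), nor did HSP101 at -0.12.

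HSP18.2 (AT5G59720), of class I, behaved differently from the other members. On each of the 14 arrays its quad level was the lower one, with ratios between -1.07 and -0.28, and passed the adjusted p in each of the 7 conditions. Its quad channels ran from 7.00 through a median of 7.69 to 8.07, and its WT channels from 7.70 through 8.40 to 8.78. The ranges overlapped between conditions, whereas within each condition both quad levels lay below both WT levels. Over the 7 conditions it was at -0.69 ± 0.05 (SE, n = 14 arrays, limma adjusted p = 6.90e-07), the lowest mean of the 8 genes.

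The HSP18.2 ratio was -0.61 at day 0. Under drought it was -0.94, -0.60 and -0.64 at days 2, 4 and 6, and with water -0.57, -0.79 and -0.70. At day 4 drought the replicates were -0.28 and -0.93. Without replicate 1, the array that stood apart, the ratio was -0.93 and still passed the adjusted p in limma, and without replicate 2 HSP18.2 did not pass. It also failed to pass without replicate 2 of day 2 water or of day 6 water and without either array of day 0 or of day 6 drought. At day 4 drought HSP18.2 did not pass with an offset of 0 either. With median centring in place of loess the single conditions no longer passed. The mean over conditions passed under every alternative, between -1.04 and -0.65. In both genotypes the HSP18.2 level was lowest at day 0, at 7.12 ± 0.16 in quad and 7.72 ± 0.03 in WT (SD, n = 2).

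Across the mean of the 7 conditions, 5 of the 8 genes passed the adjusted p downwards, against 19.4% of all genes, and none was called, against 0.0745% in either direction. After HSP18.2 these were HSP17.6II (-0.47), HSP17.4 (-0.45), HSP17.6C (-0.43) and HSP101 (-0.10). The HSP101 value passed only narrowly (limma adjusted p = 0.0432) and not when any of 10 single arrays was left out, with the slide as a block (adjusted p = 0.251 in limma), with an offset of 0 or with median centring. The means of HSP17.6II and HSP17.6C rest largely on day 0 and day 6 water. In the other 5 conditions their ratios lay between -0.27 and 0.40. HSP17.4 and HSP101 passed downwards in no single condition but day 6 water, at -1.82 and -0.76.

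At day 4 water a few members stood on the other side. HSP17.6II (0.40), HSP90.1 (0.40) and HSP101 (0.36) were higher in quad by the adjusted p, 3 of 8 genes against 5.12% of all genes, and HSP18.2 was the 1 gene lower, against 7.99%. None was called, against 1.04% in either direction. HSP17.6II (AT5G12020) had 7.15 and 7.09 in quad, against 6.67 and 6.76 in WT (0.40 ± 0.11, limma adjusted p = 0.0285). These were its 2 highest quad levels. HSP17.6A (AT5G12030) also had its 2 highest quad levels there, 7.19 and 6.95, against 6.78 and 6.68 in WT, a ratio of 0.34 ± 0.10 that did not pass (limma adjusted p = 0.0546). In the same plants all 8 root markers were higher in quad by the adjusted p (median 0.88) and 7 of 9 flower markers lower (median -0.87), 3 of them called. Their part in the result was not tested. The ratios of HSP101 and HSP90.1 did not pass without replicate 2, nor that of HSP17.6II without either array. None of the 3 passed with median centring. The HSP17.6II ratio also did not pass with signals processed by the scanner software or with an offset of 0.

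At day 2 water HSP90.1 (AT5G52640) was higher in quad, with 10.35 and 10.47 in quad against 9.83 and 9.76 in WT (0.62 ± 0.08, limma adjusted p = 0.000216). With median centring in place of loess this ratio did not pass. HSP90.1 was the 1 gene of 8 to pass upwards, against 13.4% of all genes, and HSP18.2 the 1 gene to pass downwards, against 8.06%, with none called, against 1.65%. In WT at day 2 water HSP17.6A was not well above background on either array. The quad/WT ratio of HSP90.1 was thus -0.96 at day 0 and 0.62 at day 2 water. Its quad channels covered 0.56 log2 units over the series, beside 1.39 in WT.

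Under drought few members passed the adjusted p between the genotypes. By limma 5, 1 and 3 of the 8 genes had an unadjusted p under 0.05 at days 2, 4 and 6. HSP18.2 was the 1 gene of 8 lower by the adjusted p at day 2 drought, against 11.9% of all genes, at day 4 drought, against 2.59%, and at day 6 drought, against 7.08%. On day 4 drought replicate 1, the array that stood apart, the ratios of HSP17.4, HSP17.6A, HSP17.6II and HSP17.6C lay between -0.01 and 0.02, beside -0.36, -0.07, -0.11 and 0.02 on replicate 2. No member was called at these times, against 0.894%, 0.272% and 0.443% in either direction. At day 6 drought HSP17.6C was at -0.11, with a 95% confidence interval from -0.29 to 0.07, and HSP17.4 at -0.27, with an interval from -0.63 to 0.09. HSP17.6II was not well above background in quad on either array at day 6 drought, so its ratio there is a bound only. In WT at day 6 drought HSP17.6II, HSP17.6C and HSP17.6A were well above background on 1 of 2 arrays, as was HSP17.6C in quad.

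Drought against water was then compared within each genotype, between arrays. In WT at day 6, HSP17.6C, HSP17.6II and HSP17.4 were lower under drought by 4.11-fold, 3.12-fold and 2.85-fold and were called, 3 of 8 genes against 0.269% called lower. HSP17.6A, HSP101 and HSP90.1 were also lower by the adjusted p, which made 6 of 8 genes, against 7.8%. Flower markers moved in the same comparison, with 7 of 9 lower under drought in WT by the adjusted p, all 9 below 0 and a median of -0.70. Beside 2423 of 22641 genes that passed downwards in quad, 4 of the 9 markers were lower there, with a median of -0.42. Their part in the result was not tested. In quad at day 6 no gene of the 8 passed the adjusted p, against 18% of all genes, with 1 at an unadjusted p under 0.05 (HSP18.2), and none was called, against 1.01%.

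HSP17.6C (AT1G53540) had log2 levels of 6.45 and 6.55 under drought in WT at day 6, against 8.46 and 8.62 with water, a change of -2.04 ± 0.10 (SE, limma adjusted p = 3.43e-11). In quad it had 6.38 and 6.40 under drought, against 6.18 and 6.37 with water, a change of 0.11 ± 0.10 with a 95% confidence interval from -0.10 to 0.33. HSP17.6II (AT5G12020) had 6.59 and 6.42 under drought in WT, against 8.23 and 8.07 with water (-1.64 ± 0.11, limma adjusted p = 4.23e-09). HSP17.4 (AT3G46230) had 6.63 and 7.10 under drought in WT, against 8.43 and 8.32 with water (-1.51 ± 0.19, limma adjusted p = 1.42e-05). In quad HSP17.4 stood at 6.60 and 6.60 under drought, against 6.60 and 6.51 with water. Among the 4 groups of day 6 watered WT stood apart for these 3 genes, and their levels in the other 3 groups lay between 6.11 and 7.10.

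The difference between the genotypes was tested as drought minus water of the quad/WT ratio. At day 6 this was 2.15 ± 0.12 for HSP17.6C (limma adjusted p = 3.19e-06), 1.72 ± 0.15 for HSP17.6II (0.000137) and 1.55 ± 0.23 for HSP17.4 (0.00247), all called, 3 of 8 genes against 0.0482% of all genes called upwards. HSP17.6A (1.18 ± 0.15, limma adjusted p = 0.000955) and HSP101 (0.74 ± 0.13, limma adjusted p = 0.00691) passed the adjusted p too, 5 of 8 genes against 1.39%. HSP18.2, at 0.06 ± 0.19, did not. The HSP17.6II value holds the quad drought level, which was not well above background. The 3 called genes had their lowest quad level with water at day 6 (HSP17.6C 6.18, HSP17.6II 6.11, HSP17.4 6.51). A further fall as large as in WT could hardly have been seen there. The differences thus do not show how quad would respond from a higher level. In each replicate the drought and water arrays of day 6 lay on 1 slide, and within the slides the HSP17.6C difference was 2.20 and 2.10. These comparisons share the day 6 water arrays with the comparison of quad and WT above.

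Single arrays moved some of these calls across the log2 limit. The day 6 difference of HSP17.4 was 1.32 without drought replicate 1, and that of HSP17.6II was 1.496, just below the limit, without drought replicate 2. The WT change of HSP17.4 was -1.46 without water replicate 1 and -1.28 without drought replicate 1. All of these still passed the adjusted p, and HSP17.6C stayed called without any 1 array. With median centring the day 6 differences of HSP17.4 (1.40), HSP17.6A (1.14) and HSP101 (0.59) did not pass the adjusted p, and with signals processed by the scanner software those of HSP17.4 (1.95) and HSP17.6II (2.50) did not. HSP90.1 in WT did not pass without water replicate 2 or without drought replicate 1.

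**Figure D3:**
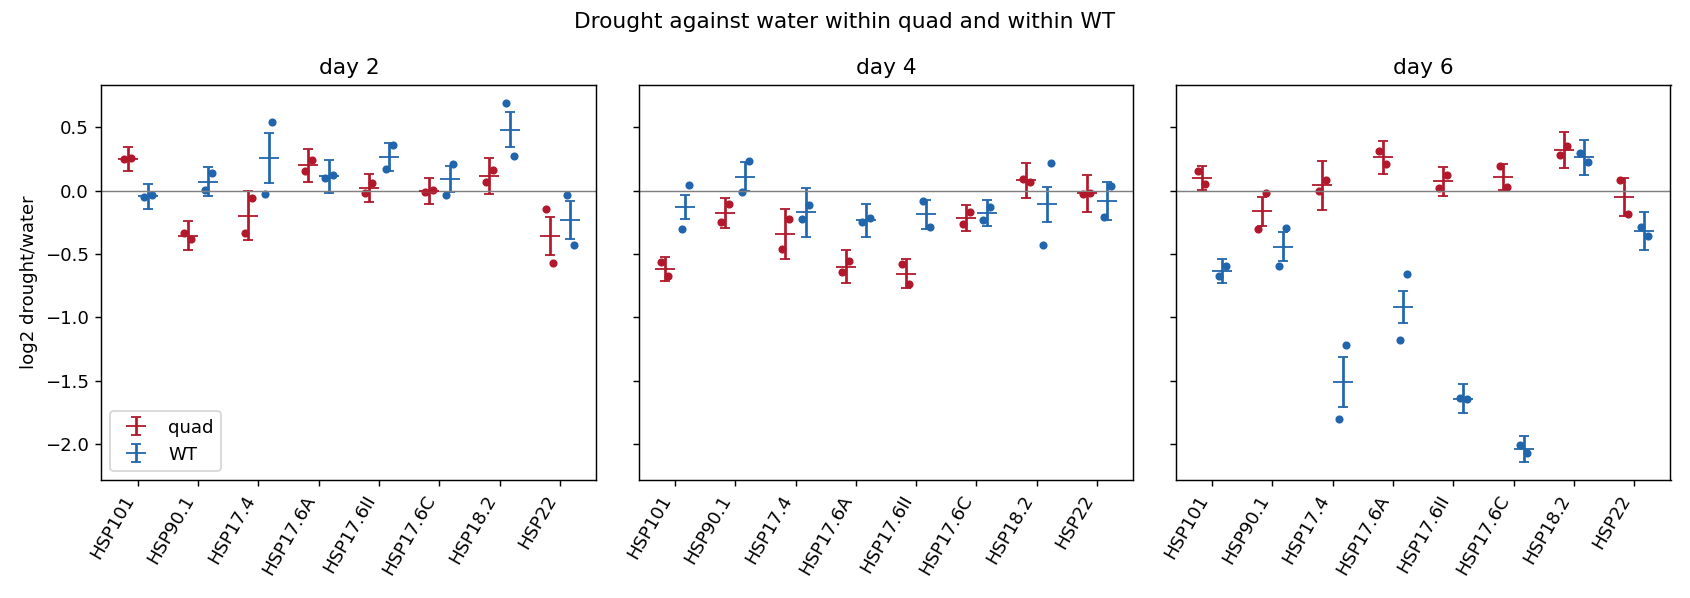
Log2 drought/water of the 8 heat shock protein genes measured (y axis) within quad (red, left) and WT (blue, right of each pair) at days 2, 4 and 6. Bars are the limma estimate ± SE and points are replicates 1 and 2. At day 6 the WT values of HSP17.6C, HSP17.6II, HSP17.4, HSP17.6A and HSP101 lie below 0, while the quad values of these genes lie between 0.04 and 0.26.

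At day 4 the changes with drought were on the quad side. HSP17.6II (-0.66 ± 0.11, limma adjusted p = 0.00085), HSP101 (-0.62 ± 0.10, limma adjusted p = 0.000266) and HSP17.6A (-0.60 ± 0.13, limma adjusted p = 0.00581) were lower under drought in quad, 3 of 8 genes against 1.98% of all genes. None was called, against 0.331%. HSP101 (AT1G74310) had 8.17 and 8.09 under drought in quad, against 8.73 and 8.77 with water. HSP17.6A did not pass without water replicate 1 or without drought replicate 2. Without drought replicate 1, the array that stood apart, all 3 still passed, at -0.76, -0.66 and -0.68. In this comparison 7 of 9 flower markers were higher under drought by the adjusted p (median 0.79), beside 703 of 22641 genes. Of the markers 2 were called higher, beside 65 of all genes, and the markers' part in the result was not tested. In WT at day 4 no gene of the 8 passed the adjusted p, against 2.17% of all genes, nor an unadjusted p under 0.05, and none was called, against 0.225%. The test of the difference between genotypes passed for 0 of 8 genes, against 4.14%, with 4 at an unadjusted p under 0.05. None was called, against 0.785%, so a genotype difference at day 4 was not shown. This test includes drought replicate 1, the array that stood apart, and was not followed without it.

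At day 2 HSP18.2 was higher under drought in WT, with 8.59 and 8.31 under drought against 7.89 and 8.03 with water (0.48 ± 0.14, limma adjusted p = 0.0227), the 1 gene of 8 to pass upwards, against 10.5%. It did not pass without either water array or without drought replicate 1. With an offset of 0 this HSP18.2 change did not pass either. In quad no gene passed, against 7.42%, with 3 at an unadjusted p under 0.05. No member was called at day 2 in quad, against 0.49%, or in WT, against 0.914%. The quad/WT ratio of HSP90.1 was lower under drought than with water at day 2 (-0.43 ± 0.12, limma adjusted p = 0.0247), 1 gene of 8 against 15.1% of all genes, with none called, against 2.71%. This difference did not pass with an offset of 0, with median centring, or without water replicate 2 or either drought array. It lay between -0.52 and -0.33 over the settings. Root markers moved at day 2 as well. All 8 were higher under drought in WT by the adjusted p (median 1.49), against 10.5% of all genes. Of these 4 were called, beside 201 of 22641 genes called higher. In quad 2 of the 8 were lower under drought (median -0.20). In the day 2 difference all 8 were lower (median -1.48), against 15.1%, with 4 called, beside 579 of 22810 genes. The part of these markers in the day 2 results was not tested.

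The 4 genes HSP17.4, HSP17.6A, HSP17.6II and HSP17.6C followed each other over the 14 arrays. Pearson r between their ratios lay between 0.88 and 0.94, a description over arrays that share hybridisations and the high WT levels of day 6 water. HSP101 correlated with them at 0.74 to 0.85 and HSP90.1 at 0.56 to 0.74. HSP18.2 had r between -0.21 and 0.10 with every other member.

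Among 22633 other genes, the 5 whose quad/WT ratios were most like the mean profile of the 8 members over the 14 arrays were AT5G14470 (r = 0.89), AT2G47440 (r = 0.88), HSP17.6B (AT2G29500, r = 0.87), HSP17.8 (AT1G07400, r = 0.86) and AR781 (AT2G26530, r = 0.86). HSP17.6B and HSP17.8 are further class I small heat shock proteins of the cytosol. At day 6 water HSP17.8 was at -0.92 and -1.06 on the 2 arrays and HSP17.6B at -0.68 and -0.47. Class I genes are known to be close in sequence, and whether a probe of one also binds the transcript of another was not tested.

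Counts in the other heat response lists at day 6 water are to be read against the 7.78% of all genes that passed upwards and the 6.78% that passed downwards. Of 9 other small heat shock proteins 8 were measured, and at day 6 water 3 were lower and 1 higher by the adjusted p, with a median of -0.30. The higher one, named after its values were seen, was HSP15.4 (AT4G21870), with log2 levels of 10.49 and 10.62 in quad, against 9.28 and 9.34 in WT (1.25 ± 0.09, limma adjusted p = 5.46e-06). At day 0 HSP15.4 was lower in quad, at -0.66 ± 0.09. No other small heat shock protein was called in any comparison.

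Among the heat shock factors, the transcription factors of this response, 20 of 21 were measured, and at day 6 water 3 were higher and 3 lower, with a median of 0.01. HSFA2 (AT2G26150), which sustains the heat response, was lower in quad at day 0 (-0.70) and day 6 water (-0.82) and higher at day 4 water (1.33), as HSP17.6II was. At day 6 drought HSFA2 was also lower (-1.04), where HSP17.6II did not pass. Its called change was the day 4 difference, -1.57 ± 0.13 (limma adjusted p = 2.79e-05). HSFB1 (AT4G36990), a class B factor without an activation domain of its own, was called higher in quad at day 2 water (2.08 ± 0.19, limma adjusted p = 8.54e-06) and lower in the day 2 difference (-1.76), where no small heat shock protein of the 8 genes passed.

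Of 12 other HSP70 genes 11 were measured, with a median of 0.27 at day 6 water, 3 higher and 1 lower. BIP3 (AT1G09080), an HSP70 of the endoplasmic reticulum that is induced when proteins unfold there, was called higher in quad at day 2 water (3.19 ± 0.20, limma adjusted p = 4.91e-07). At day 6 BIP3 was lower under drought in quad (-1.67 ± 0.23, limma adjusted p = 2.33e-05). The 8 other HSP90 and ClpB genes had a median of 0.11 at day 6 water, and by limma 0 passed the adjusted p, with 1 at an unadjusted p under 0.05. Of 15 co-chaperone and heat response genes 14 were measured, with 2 lower and a median of -0.09.

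**Figure D4:**
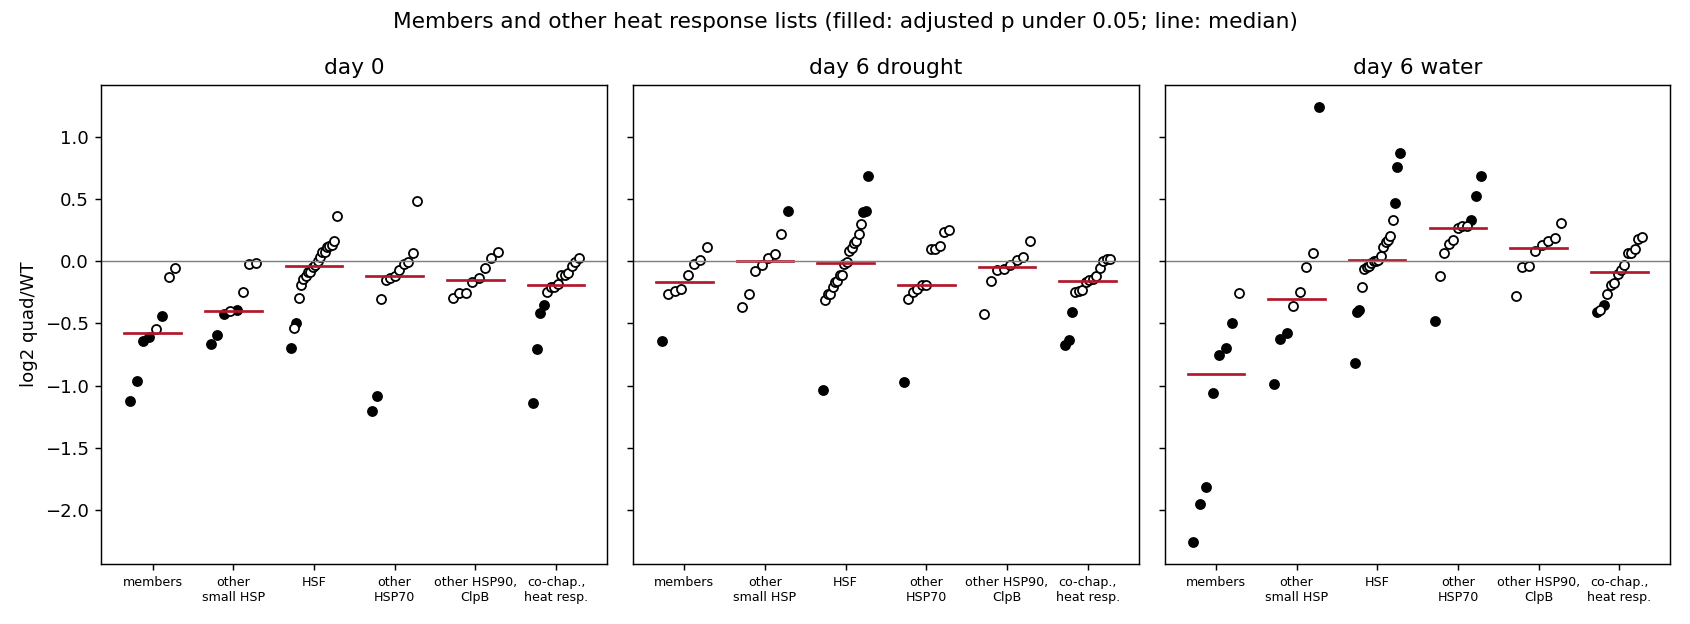
Log2 quad/WT (y axis) of the 8 heat shock protein genes measured and of 5 other heat response lists (x axis: other small heat shock proteins, heat shock factors HSF, other HSP70, other HSP90 and ClpB, co-chaperone and heat response genes) at day 0, day 6 drought and day 6 water. Each point is the limma estimate of 1 gene, filled where the adjusted p is under 0.05, and red lines are medians, which at day 6 water are -0.91 for the 8 genes and between -0.30 and 0.27 for the other lists.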

How the data were processed

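The 10 genes and all gene lists were chosen with earlier results of these data known. The authors deposited scanner files (Feature Extraction 10.5.1.1) with Cy3 and Cy5 intensities of 45210 spots, and a table of normalised log2 ratios, which served as an alternative. The deposited log10 ratios of the scanner were used only to find the scale of that table.

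Median spot intensities were corrected for local background (normexp by maximum likelihood, offset 50), normalised by loess within arrays and by Aquantile between arrays, and turned to quad over WT. Control and outlier spots were left out, and the brightest probe stood for a locus. Genes marked well above background in both replicates of some genotype and condition were kept (22810). Ratios were fitted with limma 3.58.1 in R 4.3.3, with 1 coefficient per condition. Drought against water within a genotype was fitted on the 28 single channels (22641 genes, intraspot correlation 0.25, statmod 1.5.0). P-values were adjusted by Benjamini-Hochberg over all genes. The fits were tested on simulated data. The methods call the replicates biological, each of several plants.

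The genes named are the 10 members, up to 3 called genes per list and comparison, the 4 mutated receptor genes and the 5 most similar profiles. RefSeq names (TAIR10.1) matched 27785 loci, and its coordinates were used to order the genes of chromosome 5 for the class II pair. Background correction, normalisation, the filter, the choice of probe, blocks, the threshold and single arrays were each varied in turn.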

Additional observations from a re-analysis of the deposited data

Results flagged for a closer look

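For 3 heat shock protein genes the change with drought at day 6 differed between quad and WT by the test of that difference itself (limma, drought minus water of the quad/WT log2 ratio). The value was 2.15 for HSP17.6C, 1.72 for HSP17.6II and 1.55 for HSP17.4. It was above 0 in both replicates of each gene, at 2.20 and 2.10 for HSP17.6C, 1.66 and 1.77 for HSP17.6II, and 1.80 and 1.31 for HSP17.4. These genes had their lowest quad levels in watered quad at day 6, where a fall as large as in WT could hardly have been seen. With 2 arrays per condition no group was large enough to test single arrays as outliers.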

How the results depend on the processing

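Only the 42 results for single heat shock protein genes that had passed the adjusted p were followed over the other settings chosen for the analysis. They gave 988 further values, of which 925 kept their direction and side of the adjusted p limit. Of the others, 63 kept the direction but no longer passed, and 0 reversed. Many settings left out a single array, often of a condition outside the comparison, which does not enter that comparison's estimate. Much of this agreement was thus fixed beforehand, and 925 of 988 is not a measure of robustness. The calls of HSP17.4, HSP17.6II and HSP17.6C at day 6 water held in all 24 settings, also without either array of day 6 water. Their ranges were -3.15 to -1.72, -4.23 to -1.79 and -4.18 to -2.17. In the day 6 difference HSP17.6C held in all 24 (2.01 to 3.82). Median centring accounted for 20 of the lost passes and moved the median of all genes at day 6 water by 0.11. The causes were not tested.

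With the log2 limit dropped, the number of genes past the adjusted p was 5 at day 0, 1 on each of the 3 days under drought, and 2, 4 and 7 with water on days 2, 4 and 6, and 5 for the mean. It was 1 and 5 for the differences at days 2 and 6, 3 for drought in quad at day 4, and 1 and 6 for drought in WT at days 2 and 6. Under both limits, where 0 genes were called at day 0, 3 at day 6 water and 0 for drought in quad at day 4, the scanner software's own processed signals gave 2, 5 and 2, and a normexp offset of 0 gave 1 at day 0. The share of all genes called under these settings is not given, so the counts are not a result about these genes.

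With the replicate number as a block, 3 genes were called at day 6 water as before, and no call of the 8 genes changed. Deviations of same-numbered arrays correlated over 0.1 in 19 of 21 pairs of conditions (0.0052 to 0.63), and the number also sets the dye orientation. It was not used as a pairing in the analysis, because not every pair passed 0.1 and the labels name no shared batch. Dim probes carry less signal over background and 2 arrays a condition limit precision.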
